A study of Mus musculus with 6 samples.

Results

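The genes described here carry out antigen presentation by major histocompatibility complex (MHC) class II molecules. They are the classical chains H2-Aa, H2-Ab1 and H2-Eb1, the invariant chain Cd74, the coactivator Ciita, the peptide-editing chains H2-DMa and H2-DMb1, and the chains H2-Oa and H2-Ob of the inhibitor of editing. They were followed in the ovary of 20-week-old female C57BL/6J mice, 3 wild type and 3 SeBP1 knockout, on 6 single-colour Agilent whole mouse genome arrays. SeBP1, gene symbol Selenbp1, is selenium-binding protein 1. All probes carrying 1 of these 9 gene names in the array files were taken, which gave 11 of the 39429 probes on the array. Of these, 9 probes for 8 genes were among the 24415 probes kept, that is, in at least 1 genotype all 3 arrays had them well above background. Ciita did not pass. The labels name no treatment, do not say which part of the gene was deleted, and do not say whether each array holds a separate animal, so p-values here reflect the spread between these samples only, which may be technical.

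Class II molecules present peptides from endosomes to CD4 T cells. An alpha and a beta chain pair in the endoplasmic reticulum with the invariant chain, which blocks the groove and carries the complex to endosomes. There the invariant chain is cut down to a fragment called CLIP, H2-DM exchanges CLIP for antigenic peptide, and H2-O restrains H2-DM in B cells and some dendritic cells. Transcription of class II genes relies mainly on the coactivator CIITA. It is brought to their promoters by factors bound to a conserved pair of elements, the X box (RFX and CREB) and the Y box (NF-Y). In most tissues, the ovary included, the genes are expressed chiefly by dendritic cells, macrophages and B cells, and interferon gamma can induce them in other cells.

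Promoter sequences are shown because a shared promoter design is textbook knowledge of this family. They were not used to account for the levels. RefSeq promoter windows (GRCm38.p6, 250 bases before to 50 bases after the start site) were at hand for 6 of the 9 genes, in 7 windows. Stretches of 97 bases from 5 of them follow, in the direction of transcription. Capitals mark matches, on either strand, to the Y box core TGATTGG, to an X box form (AGNAAC directly followed by NNATG) or, in H2-Aa, to the CREB site TGACGTCA. The motifs were chosen after reading these windows, and a match is a description of letters, not of binding.
H2-Eb1: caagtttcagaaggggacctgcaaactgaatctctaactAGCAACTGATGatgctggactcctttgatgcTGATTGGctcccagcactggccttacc
H2-DMb1: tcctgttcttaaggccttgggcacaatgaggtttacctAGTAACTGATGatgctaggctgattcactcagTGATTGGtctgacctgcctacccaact
H2-Ob: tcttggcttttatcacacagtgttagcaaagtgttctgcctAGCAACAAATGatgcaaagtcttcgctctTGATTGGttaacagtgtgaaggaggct
H2-Oa: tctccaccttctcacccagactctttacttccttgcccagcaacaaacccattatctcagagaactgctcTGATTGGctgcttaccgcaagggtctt
H2-Aa: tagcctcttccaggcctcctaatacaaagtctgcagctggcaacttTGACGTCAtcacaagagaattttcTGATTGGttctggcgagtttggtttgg

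The stretches lie at chr17:34305736-34305832 for H2-Eb1, chr17:34153058-34153154 for H2-DMb1, chr17:34238776-34238872 for H2-Ob and chr17:34092264-34092360 for H2-Oa, all on the plus strand, and at chr17:34287847-34287943 on the minus strand for H2-Aa (GRCm38.p6). The Y box core was present in 5 of the 7 windows, against 7.82% of all 32851 RefSeq promoter windows of the same length, and began 45 to 63 bases before the start site. The X box form was present in the windows of H2-Eb1, H2-DMb1 and H2-Ob, against 0.895% of all windows. It was separated from the Y box by 20 bases in H2-Eb1, 21 in H2-DMb1 and 18 in H2-Ob. An X box form followed within 30 bases by a Y box core on the same strand occurred in 4 of the 32851 windows, 3 of them these. As the motifs were chosen after reading these windows, the shares are no test of enrichment. H2-Aa held TGACGTCA, found in 1.79% of windows. Neither H2-DMa window held an exact match to any of these motifs, and looser forms of the boxes were not searched for. A relation between motifs and array levels was not tested.

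Selenbp1 was lower on all 3 knockout arrays than on any wild-type array, as labelled, although its probe may lie outside the deleted part. It had an intensity of 7894 to 11236 in wild type and of 1287 to 1519 in the knockout, a log2 difference of -2.75 with a standard error (SE) of 0.13 (limma, adjusted p = 0.0104), and -2.74 (adjusted p = 0.0792) with slide as a block. With each array left out in turn the difference ran from -2.84 to -2.64, and it no longer passed the threshold without wild type 1, wild type 2, knockout 1 or knockout 3. All 10 ovary genes listed, from the oocyte genes Zp3 and Gdf9 to the luteal genes Star and Cyp11a1, were well above background on all 6 arrays. The share of spots well above background was 67.8%, 67.7% and 61.6% in wild type 1 to 3 and 65.5%, 63.9% and 69.3% in knockout 1 to 3, so it was lowest in wild type 3 and knockout 2. Wild type 1 and 2 shared a slide, and wild type 3 shared the other slide with the 3 knockouts. Every level below is a log2 intensity relative to the 75th percentile of its array, a scale on which different probes cannot be ranked against each other. Probe positions follow mouse build mm9, and an mm9 annotation of exons was not used here.

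The classical chains were bright on every array and varied 1.89- to 2.19-fold between their lowest and highest arrays. H2-Ab1, the beta chain of the I-A molecule (probe at chromosome 17, 34406296 to 34406355), had log2 levels of 3.83, 3.64 and 3.27 in wild type 1 to 3 and of 4.16, 3.11 and 3.93 in knockout 1 to 3. The knockouts thus held both the highest and the lowest of the 6 values, and the wild types lay between them. It averaged 3.58 ± 0.29 across the wild types and 3.73 ± 0.55 across the knockouts (SD, n = 3 each). A second H2-Ab1 probe, 34406305 to 34406363, overlaps the first by 51 bases and is therefore no independent reading. It gave 3.52, 3.38 and 2.93 in wild type and 3.97, 2.93 and 3.76 in the knockout, and after centring the 2 probes differed by at most 0.093 on any array.

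H2-Aa, the alpha chain that pairs with H2-Ab1 (chromosome 17, 34421285 to 34421344), followed the same order of arrays. Its levels were 0.95, 0.90 and 0.26 in wild type and 1.33, 0.20 and 0.97 in the knockout, with intensities of 3394, 2961 and 1566 units against 4116, 1713 and 3238. Wild type 3 and knockout 2 were both far below the other 4 arrays. Means were 0.70 ± 0.39 (SD, n = 3) and 0.83 ± 0.58 (SD, n = 3). H2-Eb1, the beta chain of the I-E molecule (chromosome 17, 34453075 to 34453134), stood at 3.44, 3.27 and 2.88 in wild type and at 3.64, 2.72 and 3.59 in the knockout. Knockout 1 and 3 were again at the top and knockout 2 at the bottom, with means of 3.20 ± 0.29 (SD, n = 3) and 3.32 ± 0.52 (SD, n = 3). The alpha chain of I-E, H2-Ea, carries a deletion in the b haplotype of C57BL/6 mice, as background, and on none of the 6 arrays was its probe well above background.

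Cd74, the invariant chain and also a receptor for the cytokine MIF (chromosome 18, 60972075 to 60972132), had levels of 2.89, 2.70 and 2.33 in wild type and 3.26, 2.18 and 3.34 in the knockout. Its highest array was knockout 3 rather than knockout 1, while wild type 3 and knockout 2 were once more the lowest. It averaged 2.64 ± 0.28 across the wild types and 2.93 ± 0.65 across the knockouts (SD, n = 3 each).

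Ciita, which encodes the coactivator of class II transcription (chromosome 16, 10526568 to 10526627), was close to the detection limit. Its intensity was 42.0, 42.6 and 11.5 units in wild type and 24.1, 29.4 and 34.2 in the knockout. It was well above background on 2 of 3 wild-type arrays and 1 of 3 knockout arrays, namely wild type 1, wild type 2 and knockout 3. With no filter on background the log2 difference was 0.027 with an SE of 0.45, so these arrays set no narrow limit on a genotype difference in Ciita.

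H2-DM, the peptide editor, behaved like the classical chains. H2-DMa (probe matched between 34274300 and 34274863 on chromosome 17, a span longer than the probe) had levels of -1.42, -1.52 and -1.85 in wild type and -1.12, -1.88 and -1.33 in the knockout. H2-DMb1 (34297109 to 34297168) had levels of 0.25, -0.10 and -0.14 in wild type and 0.34, -0.41 and 0.43 in the knockout. In both genes knockout 1 and 3 were above all wild types and knockout 2 below them. H2-DMb1 has a near-identical neighbour, H2-DMb2, so part of its signal could belong to that gene. The H2-DMb2 probe itself was well above background on 0 of 6 arrays. Means were -1.59 ± 0.22 (SD, n = 3) and -1.44 ± 0.39 (SD, n = 3) for H2-DMa, and 0.0014 ± 0.21 (SD, n = 3) and 0.12 ± 0.46 (SD, n = 3) for H2-DMb1.

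The chains of H2-O, the inhibitor of H2-DM, were dim and, by their kept probes, followed other orders. H2-Oa (chromosome 17, 34232033 to 34232092) was at -3.00, -2.39 and -3.18 in wild type and at -2.93, -3.37 and -3.08 in the knockout. Wild type 2 stood above the other 5 arrays, which lay between -3.37 and -2.93 with the genotypes mixed. Knockout 2 was the lowest array of H2-Oa and wild type 3 the next lowest, as in the classical chains. H2-Ob (34380481 to 34380849, again a span longer than the probe) was at -5.05, -4.72 and -5.05 in wild type and at -4.24, -4.91 and -4.53 in the knockout, at intensities of 39.4 to 60.0 units and 49.6 to 86.7 units. Knockout 1 and 3 were above all wild types, and knockout 2 was among them. Means were -2.86 ± 0.41 (SD, n = 3) and -3.13 ± 0.22 (SD, n = 3) for H2-Oa, and -4.94 ± 0.19 (SD, n = 3) and -4.56 ± 0.34 (SD, n = 3) for H2-Ob. The second H2-Ob probe (34382790 to 34382849) was well above background on 4 of 6 arrays and did not pass the filter. It was at -5.87, -5.95 and -6.51 in wild type and at -5.34, -7.04 and -5.50 in the knockout, the array order of H2-Ab1. With no filter on background its log2 difference was 0.15 with an SE of 0.49.

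**Figure D1:**
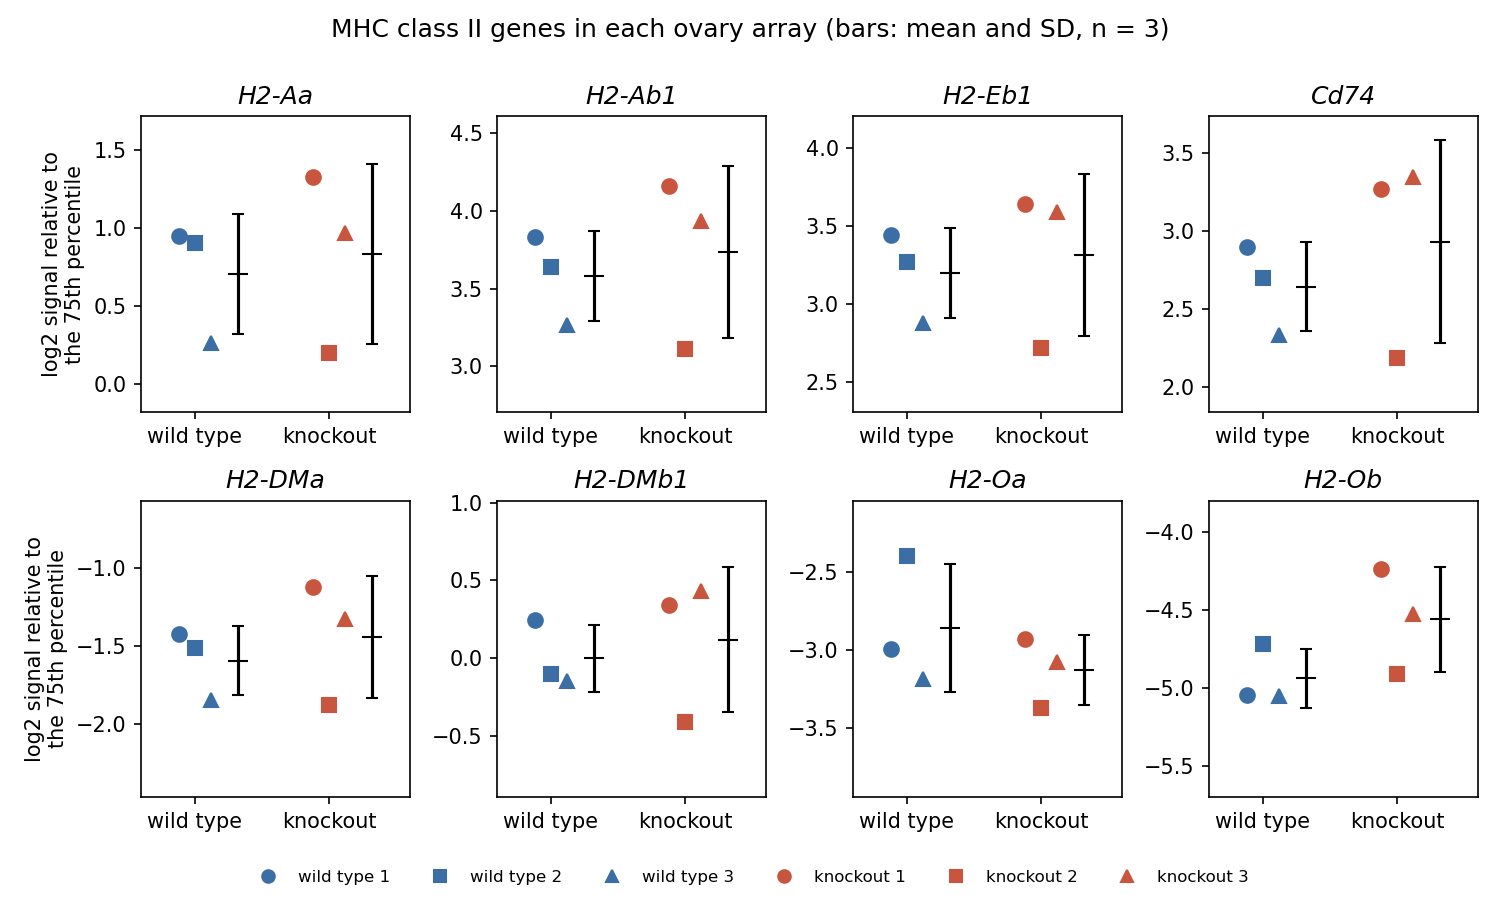
Log2 intensity, scaled to each array's 75th percentile (y axis), for the 8 kept class II genes, by genotype (x axis), with 1 point per array and bars for the mean and SD (n = 3). In 6 of the 8 genes knockout 2 is the lowest array, wild type 3 the next lowest, and knockout 1 and 3 are the 2 highest, so the genotypes overlap.

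Pairs of chains, most of which join in 1 protein complex, were compared across the 6 arrays to ask whether they move together. H2-Aa and H2-Ab1 did, with Pearson's r = 0.978 (exact permutation p = 0.00139, the smallest that 720 permutations can give; adjusted p = 0.00347 over the 5 pairs tested) and Spearman's rho = 1 (exact permutation p = 0.00278, adjusted 0.00694). Once each gene was centred on its own mean, the 2 chains differed by no more than 0.15 log2 on any array. Without knockout 2 and wild type 3, the arrays farthest from the median, r was 0.891 over 4 arrays (exact permutation p = 0.0417). H2-Aa and H2-Eb1, which belong to different molecules, had r = 0.963 (exact permutation p = 0.00139, adjusted 0.00347) and rho = 1 (exact permutation p = 0.00278, adjusted 0.00694). Without the same 2 arrays their r was 0.717 (exact permutation p = 0.292, where 4 arrays can give no p below 0.0417), so the relation did not pass the threshold over the arrays that remained.

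H2-Aa and Cd74 had r = 0.909 (exact permutation p = 0.0236, adjusted 0.0295) and rho = 0.943 (exact permutation p = 0.0167, adjusted 0.0208). Without knockout 2 and wild type 3, r was 0.567 (exact permutation p = 0.458), again short of the threshold with 4 arrays, and as deviations from the genotype means over all 6 arrays r was 0.920 (exact permutation within genotype, adjusted p = 0.0833). The largest gap between the centred values, 0.36 log2, was on knockout 3, where Cd74 was the higher. H2-DMa and H2-DMb1 had r = 0.893 (exact permutation p = 0.0153, adjusted 0.0255) and rho = 0.943 (exact permutation p = 0.0167, adjusted 0.0208), or r = 0.707 without knockout 2 and wild type 3 (exact permutation p = 0.333). With normexp background correction its r was 0.809 (exact permutation, adjusted p = 0.0799). The slides held 2 and 4 arrays, fewer than the 6 samples taken as the least for a correlation, so none is given within a slide.

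H2-Oa and H2-Ob did not track each other over all 6 arrays. Their r was 0.283 (exact permutation p = 0.608, adjusted 0.608) and their rho 0.486 (exact permutation p = 0.356, adjusted 0.356), with the largest gap, 0.57 log2, on wild type 2. Within genotypes, taking each value as its deviation from the genotype mean, their r was 0.835 (exact permutation within genotype, adjusted p = 0.0463), while the 2 chains had genotype differences of opposite sign. Across the 6 genes outside H2-O and Ciita, the 15 pairwise r values ran from 0.84 to 0.99 with a median of 0.96. H2-Oa had r of 0.19 to 0.56 with these 6 genes and H2-Ob 0.57 to 0.78, given without a test. The other 2 of the 7 planned pairs involved Ciita, which was not kept.

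**Figure D2:**
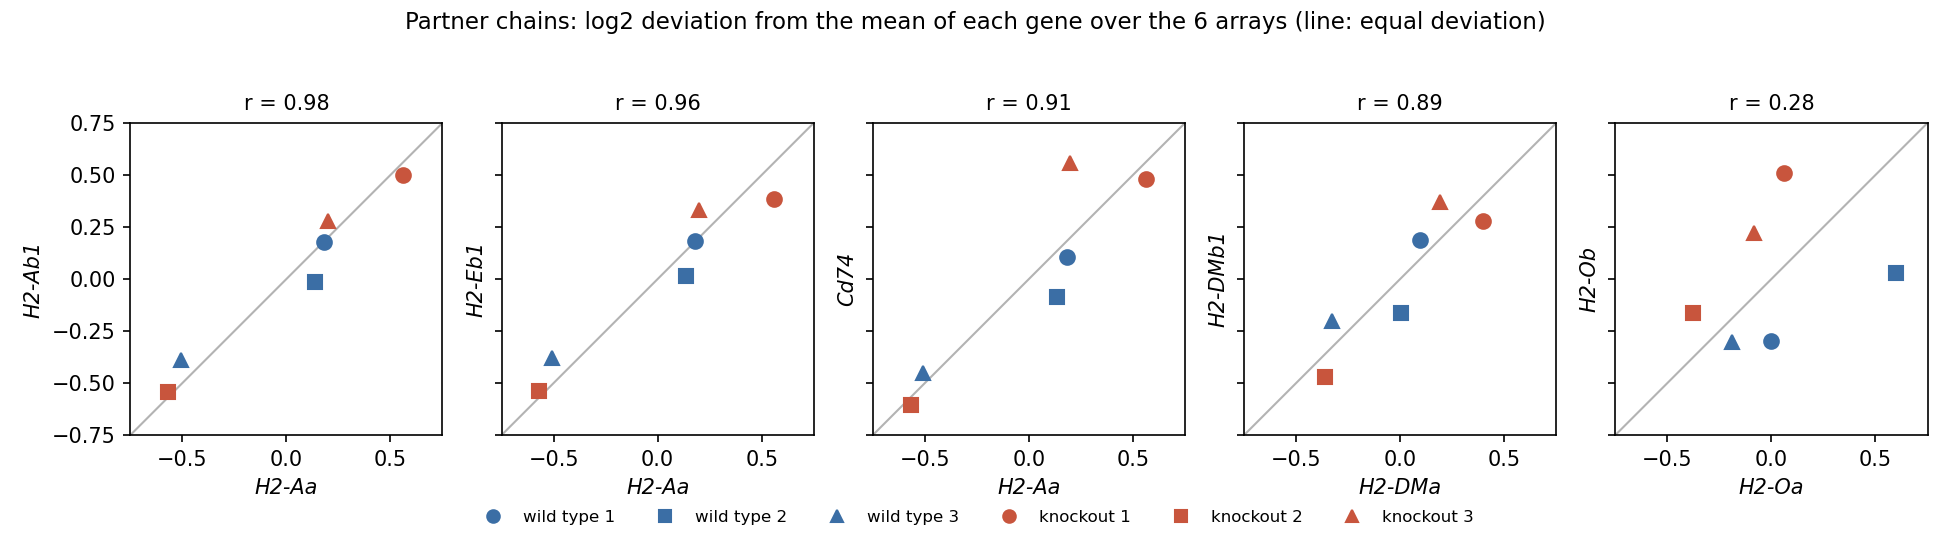
Log2 deviation of 1 chain from its mean over the 6 arrays (y axis) against that of the other chain of the pair (x axis) for the 5 pairs tested, with 1 point per array and a line of equal deviation. Points of the H2-Aa pairs and of H2-DM lie along the line with knockout 2 and wild type 3 at its lower end, while wild type 2 sits off the line for H2-Oa and H2-Ob.

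Knockout and wild type were then compared gene by gene, to ask whether loss of SeBP1 shifts class II expression in the ovary. Means of 7 of the 8 kept genes were higher in the knockout and that of H2-Oa was lower, but none passed the test. With limma, 0 of 8 had an adjusted p under 0.05, against 0.0041% of all probes tested in either direction (0% higher and 0.0041% lower, the latter being Selenbp1). At an unadjusted p under 0.05 the count was also 0 of 8, against 3.95% of all probes. In 0 of the 8 were the genotypes free of overlap, against 8.66% of all probes with 6 values. The share with a higher mean in the knockout was 45.7% over all probes, and the median log2 difference was 0.14 for the 8 genes and -0.017 for all probes.

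The intervals leave room for a difference in either direction. For H2-Ab1 the log2 difference, knockout minus wild type, was 0.15 with an SE of 0.30 and a 95% interval of -0.56 to 0.87. H2-Aa differed by 0.13 (SE 0.33, interval -0.67 to 0.92) and H2-Eb1 by 0.12 (SE 0.29, interval -0.57 to 0.81). Among the 8, Cd74 had the second largest difference, 0.29 (SE 0.34, interval -0.52 to 1.10). The 2 chains of H2-DM differed by 0.15 (SE 0.22) and 0.12 (SE 0.25). H2-Ob had the largest, 0.38 (SE 0.20, interval -0.10 to 0.86, unadjusted p = 0.102 by limma), and H2-Oa was at -0.27 (SE 0.23, interval -0.83 to 0.29). The adjusted p was 1.00 for each of the 8 genes.

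Single arrays set the sign of several of these differences. Without knockout 2 the 6 genes outside H2-O and Ciita differed by 0.37 to 0.66, without knockout 1 by -0.12 to 0.12 and without wild type 3 by -0.096 to 0.14. The number of the 8 genes higher in the knockout was 3 without knockout 1, 4 without wild type 3 and 5 without knockout 3, in place of 7. H2-Ob (0.22 to 0.56) and Cd74 (0.082 to 0.66) kept a positive difference whichever array was left out, and H2-Oa a negative one (-0.43 to -0.036). With slide as a block, which here sets the knockouts against wild type 3 alone, the 6 genes differed by 0.26 to 0.60, H2-Ob by 0.49 and H2-Oa by 0.057, and the smallest adjusted p of the 8 genes was 0.647.

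**Figure D3:**
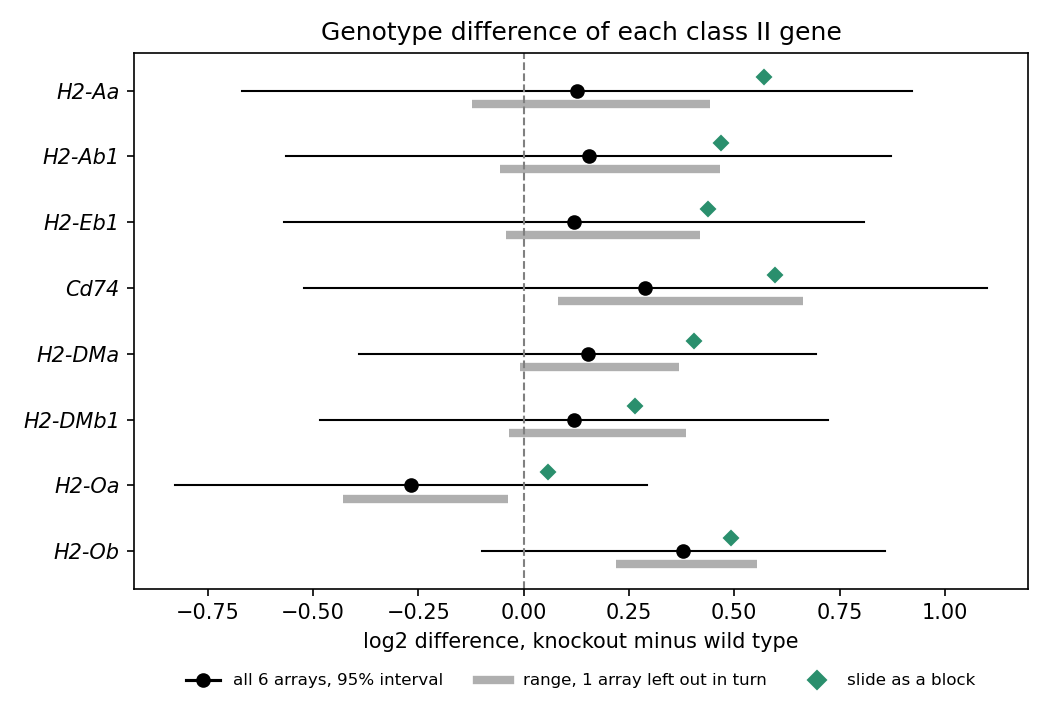
Log2 difference, knockout minus wild type (x axis), of the 8 kept class II genes (y axis), with the 95% interval from all 6 arrays, the range when each array is left out in turn (thick bar) and the value with slide as a block (diamond). Every interval includes 0, and the leave-out range crosses 0 for H2-Aa, H2-Ab1, H2-Eb1, H2-DMa and H2-DMb1.

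In each of the 6 genes outside H2-O and Ciita, the wild types and the knockouts each ranged more widely than the genotype means differed. Over the 6 arrays these genes ranged over 0.76 to 1.16 log2, that is, 1.69- to 2.24-fold between the lowest and highest array, where the median kept probe ranged over 0.52 log2. Averaged over H2-Aa, H2-Ab1, H2-Eb1 and Cd74 and centred on each gene's mean, the class II level was 0.16, 0.012 and -0.43 in wild type 1 to 3 and 0.48, -0.56 and 0.34 in knockout 1 to 3. The 2 lowest arrays, wild type 3 and knockout 2, also had the lowest shares of spots well above background. They had the lowest array weights too, 0.35 and 0.44. The median coefficient of variation between spots of 1 probe was 5.5% in wild type 3, against 2.1% to 2.7% on the other arrays, knockout 2 included. Knockout 1, with the third lowest share, had the highest class II level. The part of array quality in these levels was not tested.

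Other genes of the pathway showed no called genotype difference either. Besides H2-Ea and H2-DMb2, the list of other class II genes held H2-Eb2, a nonclassical relative of H2-Eb1, whose levels were -4.73, -4.92 and -5.22 in wild type and -5.82, -4.40 and -5.05 in the knockout. Knockout 1 was its lowest and knockout 2 its highest array, the reverse of H2-Eb1. The H2-Eb2 probe was dim, at 28.9 to 70.8 units, though well above background on all 6 arrays. Of 15 genes for class II transcription and the interferon gamma route, 13 were kept, of which 10 were higher and 3 lower in the knockout mean and 0 were called, with a median of 0.056, or 0.23 with slide as a block. Rfxap, a subunit of RFX, differed by 0.16 (SE 0.11) and the kinase Jak1 by 0.21 (SE 0.15). Ifng itself, the gene for interferon gamma, was well above background on 0 of 6 arrays. In this list Irf8, a transcription factor of myeloid and B cells, had an array pattern close to the class II level (r = 0.91), and Rfxank, a subunit of RFX, ran opposite to it (r = -0.91), with its lowest level in knockout 1 and its highest in knockout 2.

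All 12 genes of endosomal processing and class II turnover were kept, 7 higher and 5 lower with 0 called and a median of 0.050. Ctss, the protease that makes the last cuts of the invariant chain, had levels of 2.84, 2.45 and 2.18 in wild type and 3.02, 2.03 and 2.93 in the knockout, the array order of H2-Ab1. It was the sole member of this list with r of at least 0.9 to the class II level. The proteases and ligases with the smallest p were Ctsb, at -0.18 (SE 0.19), and Marchf1, which marks class II for degradation, at 0.19 (SE 0.18) or -0.17 with slide as a block. Of 7 costimulatory genes 6 were kept, 3 higher and 3 lower with 0 called and a median of 0.059, or 0.38 with slide as a block. Cd86, a ligand of CD28, had r of at least 0.9 to the class II level. Cd274, which encodes PD-L1, differed by 0.35 (SE 0.23) and Cd40 by 0.15 (SE 0.17).

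By their list median, MHC class I genes had another order of arrays. All 11 were kept, 10 higher and 1 lower in the knockout mean with 0 called and a median of 0.21. The median deviation of the list was 0.0080, -0.17 and -0.014 in wild type 1 to 3. In knockout 1 to 3 it was 0.23, -0.13 and 0.27, so wild type 3 was not low by this median. Of the 7 members with an SD of at least 0.2, 0 had r of at least 0.9 to the class II level. B2m, with an SD of 0.17, had r = 0.93 and was lowest in wild type 3. Nlrc5, the class I counterpart of Ciita, differed by 0.45 (SE 0.20), or -0.00 with slide as a block, and Psmb8, an immunoproteasome subunit, by 0.30 (SE 0.18).

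Markers of the cells that carry class II molecules were given on the same arrays. In whole ovary RNA, fewer cells of a type and less RNA per cell cannot be told apart. The leukocyte list (Ptprc, Laptm5, Coro1a, Cd53, Cd52 and Rac2) had median deviations of 0.19, -0.18 and -0.24 in wild type and 0.47, -0.50 and 0.38 in the knockout. Its array order, lowest to highest, was that of H2-Ab1, and 5 of its 6 genes had r of at least 0.9 to the class II level, against 2.38% of the 11782 kept probes with an SD of at least 0.2 over the arrays. All 6 were kept, 6 were higher in the knockout mean and 0 were called, with a median difference of 0.23 and differences of 0.35 (SE 0.30) for Cd52 and 0.30 (SE 0.25) for Rac2. The summed intensity, each gene relative to the 75th percentile, was 3.42 to 4.85 in wild type and 3.21 to 6.15 in the knockout.

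By their median deviations, the macrophage and dendritic cell lists had the same order of arrays, but their summed levels did not. Of 14 macrophage and monocyte genes 13 were kept, 10 higher and 3 lower with 0 called, a median of 0.18 and summed levels of 16.0 to 18.3 in wild type and 15.1 to 22.4 in the knockout, while Cd163 was well above background on 0 of 6 arrays. The sum was 17.0 in wild type 3 against 16.0 in wild type 2, and it was lowest in knockout 2. The 5 with r of at least 0.9 to the class II level were the complement genes C1qa, C1qb and C1qc, the Fc receptor Fcgr1 and the lysozyme Lyz2. Cd68, a lysosomal protein of macrophages, had the smallest p of this list and differed by 0.76 (SE 0.23), and Itgam, an integrin of myeloid cells, by 0.20 (SE 0.17), or -0.092 with slide as a block. Itgam was highest in knockout 2, against the order of the list, with r of -0.60 to the class II level. Of 10 dendritic cell genes 8 were kept, 6 higher and 2 lower with 0 called, a median of 0.13, or 0.33 with slide as a block, and summed levels of 25.9 to 34.0 in wild type and 29.8 to 36.7 in the knockout. The dendritic sum was lowest in wild type 1 and second highest in wild type 3. This sum was set mostly by Siglech, as the other kept genes of the list had negative levels on every array. Siglech was at 4.62, 4.68 and 5.04 in wild type and 4.99, 4.85 and 5.13 in the knockout, with r of 0.097 to the class II level. Itgax, which encodes CD11c, and Flt3, a growth factor receptor of dendritic cells, had r of at least 0.9 to the class II level, while Xcr1 was well above background on 0 of 6 arrays. Ccr7, the receptor that guides dendritic cells to lymph nodes, differed by 0.90 (SE 0.29), between 0.60 and 1.07 with each array left out in turn, and Batf3 by 0.39 (SE 0.23).

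B cell genes did not show that order by their median deviations. Of 11, 6 were kept, 2 higher and 4 lower with 0 called, a median of -0.087, or 0.17 with slide as a block, and summed levels of 0.497 to 0.593 in wild type and 0.518 to 0.631 in the knockout, and the transcription factor Pax5 and the kinase Blk were well above background on 0 of 6 arrays. The list median was lowest in wild type 3 and highest in knockout 2, the array with the lowest class II levels. The summed level was instead lowest in wild type 3 (0.497) and knockout 2 (0.518) and highest in knockout 1 (0.631), so median and sum differed. Cd79b, a subunit of the B cell receptor, was its exception with r of at least 0.9. Cd22, an inhibitory receptor of B cells, differed by 0.22 (SE 0.12). Of 12 T and NK cell genes 8 were kept, 5 higher and 3 lower with 0 called, a median of 0.036 and summed levels of 2.87 to 2.96 and 2.76 to 3.26. The T cell receptor subunits Cd3g and Cd3d differed by 0.65 (SE 0.19) and 0.84 (SE 0.27), whereas another subunit, Cd3e, differed by 0.015 (SE 0.16). Cd4 differed by -0.028 and Cd5 by -0.11, or 0.25 with slide as a block, and Cd8a and Ncr1 were well above background on 0 of 6 arrays.

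Lymph node stroma and ovary genes gave further reference. Of 6 lymph node genes 4 were kept, 2 higher and 2 lower with 0 called. Summed levels were 32.7 to 41.2 in wild type and 29.8 to 48.1 in the knockout. These sums were set mostly by Ccl21a, at 4.88 to 5.58, as the other kept genes had negative levels on every array. Madcam1 differed by 1.20 (SE 0.33) and the chemokine Ccl19 by 0.73 (SE 0.33), and Glycam1 was well above background on 0 of 6 arrays. The 10 ovary genes split 5 to 5 with 0 called and a median of -0.070, or 0.40 with slide as a block, summed levels of 221 to 251 and 171 to 247, and 0 members with r of at least 0.9. Foxl2, a granulosa cell transcription factor, differed by -0.19 (SE 0.10) and the androgen-forming enzyme Cyp17a1 by 0.63 (SE 0.48). The part of any of these cell types in the class II levels was not tested.

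**Figure D4:**
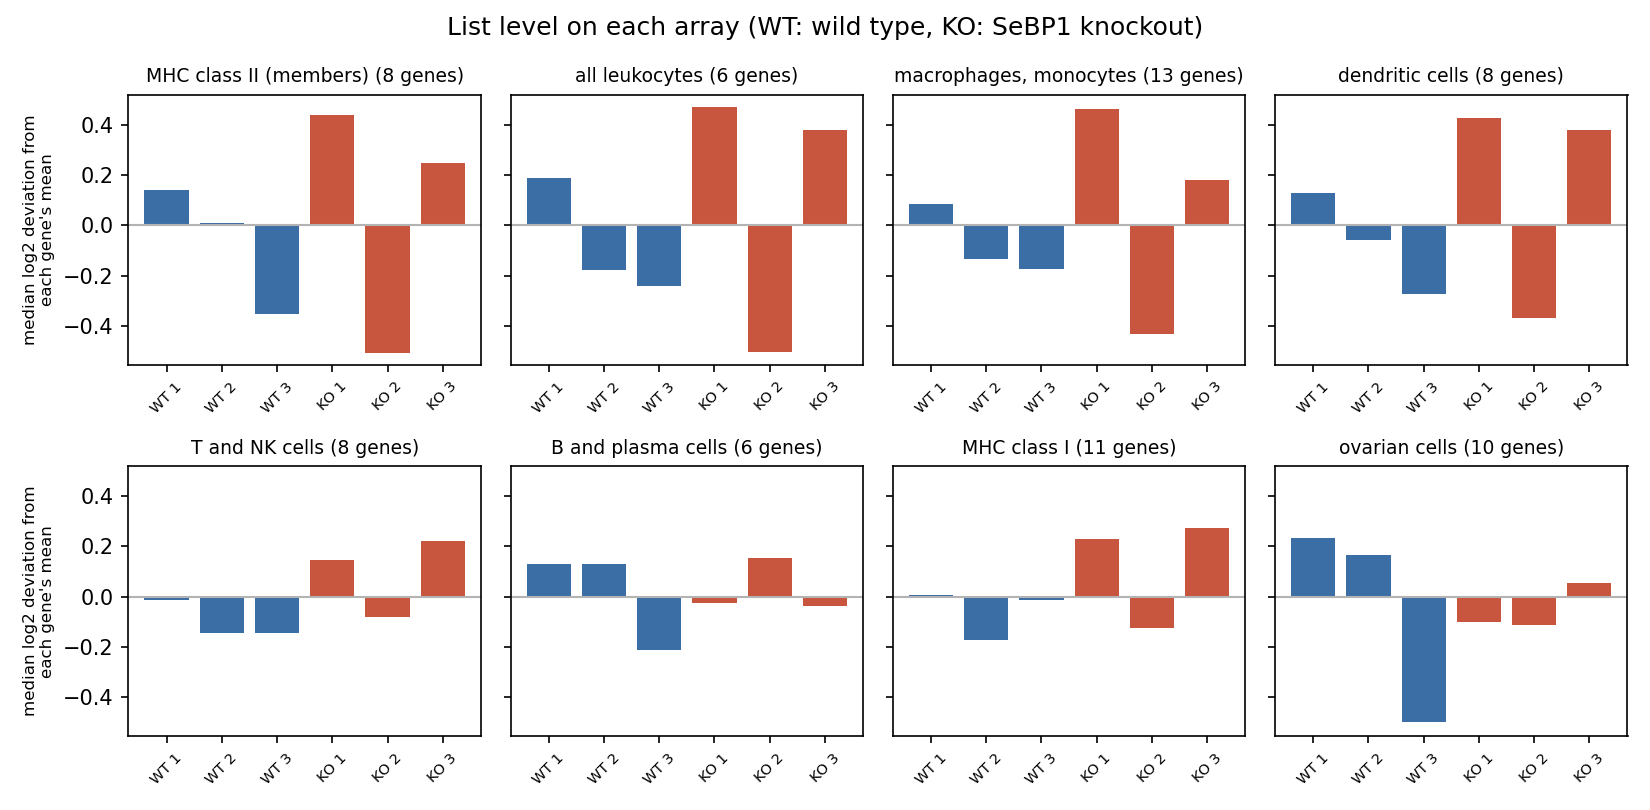
Median log2 deviation of each gene list from the mean of each gene (y axis) on each of the 6 arrays (x axis), with the number of kept genes in each panel title. The class II, leukocyte, macrophage and dendritic cell panels have their lowest points at knockout 2 and wild type 3 and their highest at knockout 1, while the B cell panel is highest at knockout 2 and the ovary panel is lowest at wild type 3.

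Genes elsewhere in the genome with the pattern most like the class II level were listed by Pearson's r over the 6 arrays, among 11782 kept probes with an SD of at least 0.2. At r of 0.9 or more there were 281 of these probes, 8 class II member probes counted among the 11782, and at r of -0.9 or less there were 59. The 8 named genes of highest r outside the class II genes were Pcdhb7 (0.997), a clustered protocadherin, Ly9 (0.994), a SLAM-family receptor of lymphocytes and macrophages, Med12 (0.993), a Mediator subunit, Emilin1 (0.993), an extracellular matrix glycoprotein, Hcst (0.993), the signalling adaptor DAP10, Ifitm3 (0.992), an interferon-induced antiviral protein, Ms4a7 (0.991), a membrane protein of macrophages, and Megf10 (0.989), an engulfment receptor. The ranking is a description over 6 arrays and carries no test.

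Ms4a7 had levels of 1.22, 1.04 and 0.82 in wild type and 1.50, 0.67 and 1.32 in the knockout, an order of arrays identical to that of H2-Ab1. Megf10 differed from the rest in size. It was at -2.46, -2.59 and -5.05 in wild type and at -0.50, -5.59 and -1.84 in the knockout, a range of 5.09 log2 over the 6 arrays, against at most 1.16 for the 6 class II genes outside H2-O and Ciita. Wild type 3 and knockout 2 were again its 2 lowest arrays. Ly9 was well above background on 5 of the 6 arrays, missing in wild type 3.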

How the data were processed

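Ovary RNA of 6 samples, 3 per genotype by the labels, was hybridised to Agilent arrays after Cy3 labelling, per the labels' protocols. The deposited scanner files hold spot intensity from Agilent Feature Extraction 10.7.1.1, background-subtracted and detrended, with low values replaced by surrogates and positions on mm9, per the file headers. Intensity is also the unit of the deposited series table, whose arrays share 1 median (119.8) and follow the scanner values (Spearman correlation at least 0.9999 across probes). The sources used here do not give how it was made, and it was an alternative. No spot was saturated. Outlier spots (192 to 459 per array) were left out, spots of a probe averaged, and log2 values computed from the deposited intensity minus the 75th percentile over 43020 non-control spots. Probes for the other lists were named by RefSeq accession (26412 probes), symbol (3854), older symbol (735) or the name in the file (8428).

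Genotypes were compared with limma 3.58.1 (lmFit, eBayes, R 4.3.3), two-sided, over 24415 kept probes with Benjamini-Hochberg adjustment and a threshold of 0.05. The code was tested on simulated data. Agreement of chains was tested by exact permutation of pairings, two-sided, with scipy 1.17.1 and numpy 2.4.6. Plots were drawn with matplotlib 3.10.9. The number of arrays limits precision. Fits under 18 alternative settings covered background correction, scaling, filters, slide, replicate number, array weights and each array left out. Every member was named, by its kept probe of highest mean. From each other list the 2 kept genes of smallest p were named, except 1 gene not reported here, and from outside the 8 most similar genes. Genes named for an r of at least 0.9 with the class II level, with H2-Eb2, Ctss, Rfxank, Siglech, Ccl21a, Cd3e, Cd4 and Cd5, were chosen after their values were seen. The members and lists were chosen with earlier results of these data known.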

Additional observations from a re-analysis of the deposited data

How the results depend on the processing

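No class II gene was called in any of the 18 alternative settings, where the smallest adjusted p was 0.313 (limma). Not every setting could change a direction. The changes of filter and the block by replicate number leave each difference as it was by design. Slide as a block and the shared slide alone give the same difference, so they are not separate checks. With all of these counted, of 145 recomputed differences of the 8 kept genes 134 kept their direction and 11 were reversed. Those reversed were H2-Oa, at 0.057 both with slide as a block and on the shared slide alone, and 5 genes with 1 array left out, whose differences then ran from -0.12 to 0.44 (H2-Aa), -0.057 to 0.47 (H2-Ab1), -0.043 to 0.42 (H2-Eb1), -0.0088 to 0.37 (H2-DMa) and -0.036 to 0.39 (H2-DMb1). The number of the 8 genes higher in the knockout ran from 3 to 7 with each array left out. Over all probes the number called was 1, 0 with no filter on background, slide as a block, the shared slide alone or the replicate block, 6 with array weights and 0 to 19 with each array left out (19 without wild type replicate 3). With the replicate number as a block 0 class II genes were called. Cd74 differed by 0.29 as before, which this block fixes in advance, since every number holds both genotypes. Same-numbered arrays had correlated deviations of -0.33, 0.30 and -0.027, which gives no sign that the numbers pair the samples. These numbers are those of the labels' descriptions, and the sample titles carry other numbers, by which wild type 1 and knockout 2 alone would match (0.14). Of 20 recomputed correlations between chains, 16 kept their side of the threshold. The others were r = 0.809 for H2-DMa and H2-DMb1 with normexp background correction (adjusted p = 0.0799) and, as deviations from genotype means with exact permutation within genotype, r = 0.920 for H2-Aa and Cd74 (adjusted p = 0.0833), 0.890 for H2-DMa and H2-DMb1 (adjusted p = 0.0833) and 0.835 for H2-Oa and H2-Ob (adjusted p = 0.0463). Without this centring, r was 0.909 for H2-Aa and Cd74, 0.893 for H2-DMa and H2-DMb1 and 0.283 for H2-Oa and H2-Ob. Exact permutation within genotype has 36 permutations and can give no p below 0.0278, against 0.00139 for all 720. The cause of these changes was not tested. Signal over background limits what can be said of Ciita and of both H2-Ob probes. The kept H2-Ob probe, at 39.4 to 86.7 units, differed by 0.11 with normexp background correction, against 0.38 in the fit used above.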
